A study of Mus musculus with 6 samples.

Results

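The genes described here were 39 genes of the lysosome and of autophagy, chosen by name from the 54429 genes of the deposited count files: 7 lysosomal membrane proteins, 7 proteases, 8 glycosidases, 6 lipid hydrolases and lumenal cofactors, the transcription factor Tfeb and 10 genes of the autophagy machinery. RNA was sequenced from the prefrontal cortex (PFC) of mice of 6 months, with 2 libraries in each of 3 groups. The WT + vehicle group had the (C57BL/6 x C3H) background, and the Tau + vehicle group carried the PS19(P301S) transgene, which expresses human tau with the P301S mutation under the mouse prion protein promoter. The Tau + UNC0642 group carried the same transgene and received UNC0642, an inhibitor of the histone methyltransferases EHMT1 and EHMT2 (GLP and G9a), at 1 mg/kg once daily for 3 days. The comparisons asked what the P301S transgene was associated with in the PFC and what followed inhibition of EHMT in the transgenic mice. The libraries used here included no UNC0642-treated WT mouse, so that a response to the compound was measured in the transgenic background alone.

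Lysosomes are acidic organelles in which proteases, glycosidases and lipid hydrolases break down material that arrives by endocytosis or in autophagosomes. Their membrane carries the proton pump that keeps the lumen acidic, heavily glycosylated LAMP proteins, and transporters and channels that export the products of digestion. Autophagosomes form through the ULK1 and Beclin 1 kinase complexes and the ATG conjugation enzymes, carry lipid-linked Atg8 homologues (the LC3 and GABARAP proteins) on their membrane, and take up ubiquitinated cargo such as aggregated tau through receptors of which Sqstm1 (p62) is the best known. TFEB switches many of these genes on by binding a palindrome in their promoters, the CLEAR element, and inherited loss of many of the hydrolases causes a lysosomal storage disease with early neurodegeneration.

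The letters of the CLEAR element were looked up on both strands of the promoters, taken as the 250 bases before to 50 bases after each RefSeq start (GRCm38.p6), which were available for 34 of the 39 genes and not for Npc1, Ctsh, Asah1, Becn1 and Map1lc3a. The core CACGTG was present in 13 of 34 promoters (38.2%), against 8.09% of all 27025 promoters and 11.0% of those of the genes tested. The longer GTCACGTG, which contains that core, was present in 9 of 34 (26.5%), against 2.55% of all promoters and 4.32% of those of the genes tested. The whole palindrome GTCACGTGAC was present in 1 promoter, that of Cln3 (2.94%, against 0.37% of all promoters). A window of 30 bases from each of the 9 genes with GTCACGTG follows, printed on the gene's own strand, because these are the members that carry the letters of the element and because they include both of the members that passed the test for a difference between groups, Cln3 and Naglu. Capitals mark the match, which reads as the reverse complement CACGTGAC in Lamp1.
Cln3 (chr7:126583340-126583369, minus strand): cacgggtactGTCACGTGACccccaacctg
Naglu (chr11:101070009-101070038, plus strand): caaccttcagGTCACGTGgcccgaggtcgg
Mcoln1 (chr8:3500436-3500465, plus strand): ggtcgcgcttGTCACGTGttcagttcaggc
Lamp1 (chr8:13159121-13159150, plus strand): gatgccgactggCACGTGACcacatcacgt
Atp6v0d1 (chr8:105566050-105566079, minus strand): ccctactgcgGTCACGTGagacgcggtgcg
Ctsa (chr2:164833749-164833778, plus strand): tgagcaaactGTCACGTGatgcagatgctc
Gla (chrX:134601182-134601211, minus strand): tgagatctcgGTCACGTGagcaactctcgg
Glb1 (chr9:114401018-114401047, plus strand): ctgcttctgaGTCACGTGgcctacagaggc
Atg7 (chr6:114670952-114670981, plus strand): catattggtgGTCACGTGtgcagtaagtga
In Cln3 the core lay at positions -121 to -116 from the RefSeq start, in Naglu at -73 to -68, and in Atp6v0d1 it spanned the start itself. The RefSeq start used here need not be the outermost one annotated. The windows of Cln3, Ctsa and Atg7 lie inside the GENCODE gene models, 2448, 876 and 27855 bases downstream of their 5′ ends, and those of Cln3 and Ctsa overlap annotated exons. A match is a string of letters and was not examined for binding. Many lysosome and autophagy genes carry the element, as said above. Its higher share among the members thus came with the choice of the list and says nothing about the groups.

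The 6 libraries held 17005664 to 28972176 counts each, and all 39 members were among the 20409 genes that passed the filter on low counts. Levels are given as CPM, counts scaled to a common library total after TMM normalisation. Markers of cortical excitatory neurons summed to 2475 to 3052 CPM in each library. The replicates were not alike in other ways. Xist was at 190.9 to 316.6 CPM in both Tau + vehicle libraries and in WT replicate 2, and at 0.118 to 0.197 CPM in both Tau + UNC0642 libraries and in the library labelled WT replicate 1, and the Y-linked Ddx3y showed the opposite pattern, so that the sex-linked pattern and UNC0642 cannot be told apart in the comparison of Tau + UNC0642 with Tau + vehicle. Prnp, whose promoter drives the PS19 transgene, was at 1470 to 1694 CPM in the 4 Tau libraries and at 872.9 CPM in WT replicate 2, but at 1652 CPM in the library labelled WT replicate 1. Mapt, the mouse tau gene, was at 570.5 to 614.0 CPM in the 4 Tau libraries and at 448.7 CPM in WT replicate 2. In the library labelled WT replicate 1 Mapt was at 575.6 CPM. The labels were kept, and whether that library came from a transgenic mouse was not tested. Tau replicate 2 held 5278 CPM of 6 oligodendrocyte markers and 166.1 CPM of 6 striatal projection neuron markers, against 1386 to 2841 CPM and 63.6 to 78.2 CPM in the other libraries. Several results below, chiefly calls and medians over the 39 members, are therefore also given without the library labelled WT replicate 1, without Tau replicate 2, or without both. Other values, among them counts of genes that did not overlap, interval counts and medians by class, are given for all 6 libraries only. In such bulk tissue, fewer cells of a type and less RNA per cell cannot be told apart.

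The members spanned a wide range of levels. Per kilobase of annotated exon, Psap, the precursor of the saposins that help hydrolases act on sphingolipids, was highest at 557.4 CPM per kb and made up 33.6% of the summed level of the 39 genes. Gabarapl1 followed at 251.1, Atp6v0d1, a subunit of the proton pump, at 125.0, Sqstm1 at 117.7, Map1lc3a at 95.2 and Lamp1 at 79.9 CPM per kb. Among the Atg8 homologues the order was the same in every library. Gabarapl1 lay at 229.7 to 264.9 CPM per kb, Map1lc3a at 89.2 to 100.4, Gabarap at 43.5 to 49.7, Gabarapl2 at 17.0 to 20.6 and Map1lc3b at 14.7 to 16.4, so that no 2 neighbours in this order overlapped. The order rests on the length of all annotated exons together, 7517 bases for Map1lc3b and 1181 for Map1lc3a. Without division by length, Map1lc3b lay at 110.4 to 123.6 CPM and overlapped Map1lc3a (105.4 to 118.6 CPM). It then lay above Gabarap (80.2 to 91.7 CPM) and Gabarapl2 (39.6 to 47.9 CPM). The 7 proteases among the 39 lay lower, from Ctsl at 16.0 down to Ctsh at 1.53 CPM per kb. Ctsb and Ctsd, lysosomal proteases outside the 39, lay at 78.6 and 72.1 CPM per kb. Cln3, a lysosomal membrane protein whose loss causes juvenile Batten disease, at 1.26 CPM per kb, and Tfeb, at 0.827 CPM per kb, were the lowest of the 39. The lowest count of any member in any library was 59, for Ctsk.

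**Figure D1:**
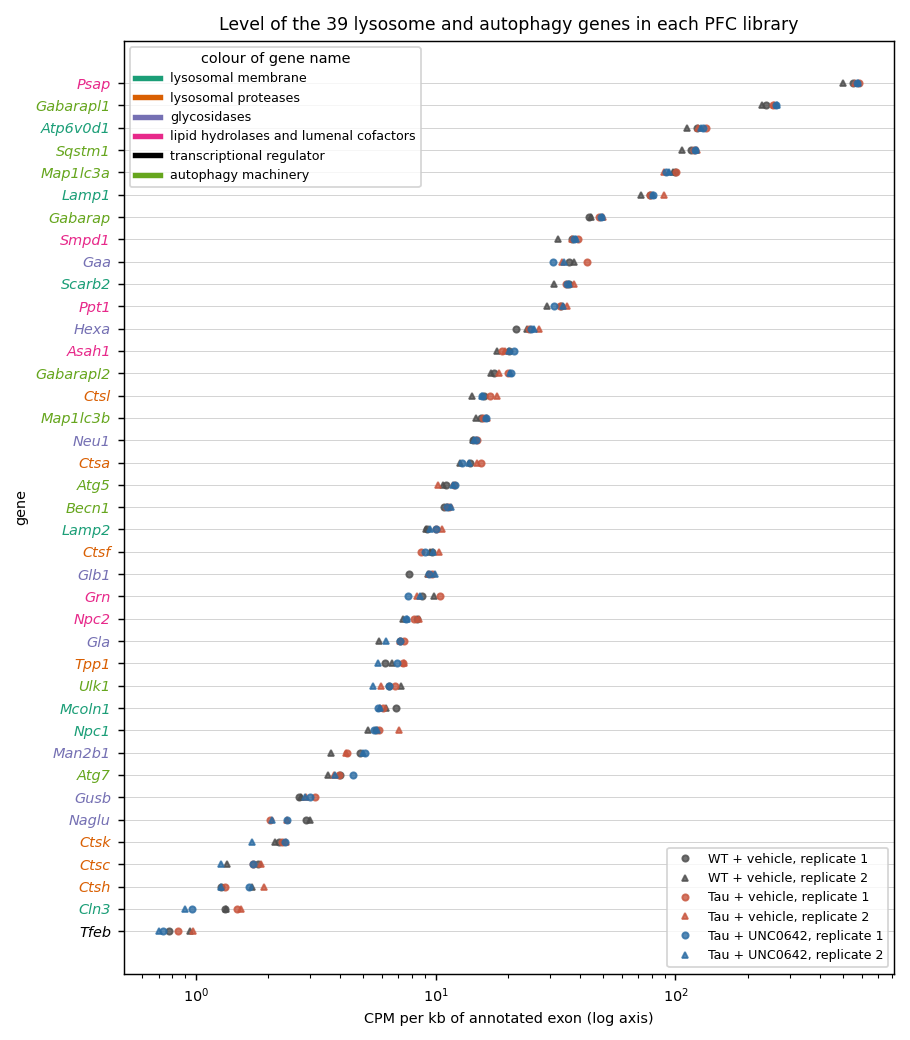
Level of each of the 39 genes, in CPM per kb of annotated exon on a log axis, in each of the 6 libraries, with the colour of a gene's name giving its functional class. The spread among the libraries of a gene is narrow beside the range from Psap at 557.4 to Tfeb at 0.827 CPM per kb.

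Levels were read with 2 further limits. The gene models of Gabarapl2 and Map1lc3b have processed pseudogenes with nearly the same sequence (Gm3724, 99.427% identical over 349 bases, and Gm6055, 99.735% identical over 378 bases), and these held 4728 and 3481 counts beside 5990 for Gabarapl2 and 16083 for Map1lc3b over the 6 libraries, so that the split of reads between gene and copy is uncertain. The strand setting of the counting is not given in the sources used here, so reads of a gene on the opposite strand, such as Apobr beside Cln3 or Cntd1 beside Becn1, could be counted with a member or left out with it.

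Compared with WT + vehicle, the members were on balance slightly higher in Tau + vehicle, and none was much higher. The median of the 39 log2 fold changes was 0.12 (8.92% higher), against -0.0001 for all genes tested and 0.04 for the 11795 protein-coding genes in the same range of levels. Of the 39, 34 lay above 0 (87.2%), against 50.0% of all genes tested and 61.4% of those protein-coding genes. With libraries scaled by total counts in place of TMM the median was 0.05 and 26 of 39 lay above 0, while the median of all genes was then -0.07. The range of the 39 was -0.42 to 0.24. A gene was called changed at an unadjusted p under 0.05 in edgeR's quasi-likelihood test and a fold change of at least 1.2, the study's own limits. By these limits 1 of 39 members was called (2.56%), against 9.81% of all genes tested, of which 3.72% were higher and 6.1% lower, and the member was lower. The limma-voom fit called 1 member and DESeq2's Wald test 0. After Benjamini-Hochberg adjustment of edgeR's p-values 0 members passed at 0.05 (0.157% of all genes tested did), with 3 under 0.05 before adjustment at any fold change (12.4% of all genes). The 95% interval of the fold change lay within 1.5-fold in both directions for 35 of the 39 members (89.7%), against 48.6% of all genes tested and 79.1% of the protein-coding genes in the same range.

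**Figure D2:**
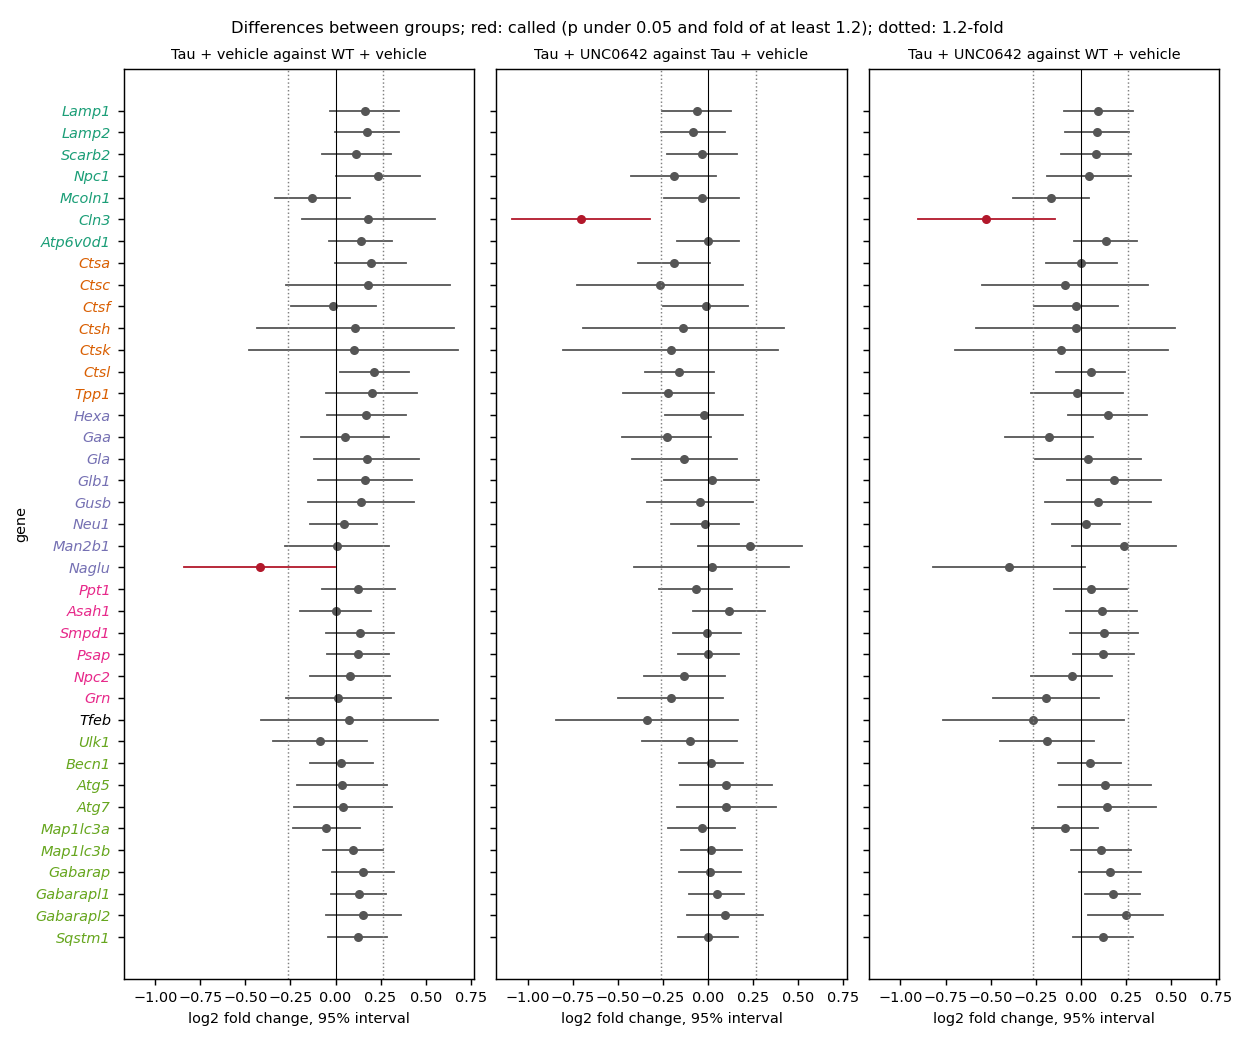
Log2 fold change of each of the 39 genes with its 95% interval in the 3 comparisons, with dotted lines at 1.2-fold and called genes in red. Naglu in Tau + vehicle against WT + vehicle (-0.42), and Cln3 against Tau + vehicle (-0.70) and against WT + vehicle (-0.52), were the called members.

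The called member was Naglu, the glycosidase that removes N-acetylglucosamine from heparan sulfate and is missing in Sanfilippo syndrome type B. It was at 7.69 and 7.97 CPM in WT + vehicle and at 5.40 and 6.36 CPM in Tau + vehicle. Both WT libraries lay above both Tau libraries, and the 2 Tau + UNC0642 libraries, at 6.39 and 5.51 CPM, lay in the range of the Tau libraries or next to it. Naglu fell by 0.42 on the log2 scale (SE 0.19, 25.2% lower, n = 2 against 2) with a 95% interval of -0.84 to -0.0012 and a Benjamini-Hochberg adjusted p = 0.402 in edgeR's quasi-likelihood fit. This call stood at the limit, as the interval shows. It was lost without the library labelled WT replicate 1 (log2 fold change -0.45), without WT replicate 2 (-0.39), without Tau replicate 1 (-0.30) and without either Tau + UNC0642 library (-0.42 in both), although the direction stayed the same.

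Of the membrane proteins, 6 of 7 lay above 0 with a median of 0.16, and none was called. Lamp1, a LAMP glycoprotein that lines the lysosomal membrane, was at 210.4 and 191.7 CPM in WT + vehicle, 209.8 and 240.5 CPM in Tau + vehicle, and 215.3 and 215.4 CPM in Tau + UNC0642. The WT and Tau ranges overlapped, with Tau replicate 2 above the rest. The log2 fold change was 0.16 (SE 0.09, 95% interval -0.03 to 0.35, adjusted p = 0.475 from edgeR). Npc1, which exports cholesterol from the lysosome, had the highest fold change of the 39, at 0.24 (SE 0.11), and was at 63.9 and 59.2 CPM in WT + vehicle and at 65.5 and 79.9 CPM in Tau + vehicle, with Tau replicate 2 well above the other 3. Its 95% interval, 0.0033 to 0.47, lay above 0, but its fold of 1.18 was under the limit of 1.2 and its adjusted p = 0.40 in the edgeR fit. Mcoln1, the calcium channel TRPML1 of the lysosomal membrane, was the exception, at 51.6 and 46.8 CPM in WT + vehicle and 45.8 and 44.2 CPM in Tau + vehicle, with a log2 fold change of -0.13 (95% interval -0.34 to 0.08).

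Of the proteases, 6 of 7 lay above 0 with a median of 0.18. Ctsl, the cysteine protease cathepsin L, was at 103.6 and 91.6 CPM in WT + vehicle, 109.5 and 117.0 CPM in Tau + vehicle, and 101.2 and 101.5 CPM in Tau + UNC0642. Both Tau + vehicle libraries lay above the other 4. The log2 fold change between Tau + vehicle and WT + vehicle was 0.21 (SE 0.09, 95% interval 0.02 to 0.41, adjusted p = 0.37 from edgeR), and its fold of 1.16 was under the limit on fold. Tpp1 (0.20), Ctsa (0.19) and Ctsc (0.18) had fold changes of similar size and intervals that included 0. Ctsc, Ctsh and Ctsk, the 3 least abundant proteases, had intervals that reached beyond 1.5-fold, so a rise of that size lay inside them.

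Of the glycosidases, 7 of 8 lay above 0 with a median of 0.10. The WT and Tau values did not overlap in 6 of the 8, with Hexa, Gla, Glb1, Gusb and Neu1 higher in Tau + vehicle (62.5%, against 21.9% of all genes tested and 29.4% of the protein-coding genes in the same range of levels) and Naglu lower (12.5%, against 21.4% and 13.9%). Hexa, the alpha subunit of beta-hexosaminidase that is missing in Tay-Sachs disease, was at 43.1 and 48.2 CPM in WT + vehicle and at 49.1 and 53.9 CPM in Tau + vehicle (log2 fold change 0.17, SE 0.10, 95% interval -0.05 to 0.39). All 6 lipid hydrolases and lumenal cofactors lay above 0, from 0.0001 for Asah1, the acid ceramidase, to 0.14 for Smpd1, the acid sphingomyelinase, and none was called. Psap itself was at 1512.6 and 1371.5 CPM in WT + vehicle and at 1602.6 and 1542.6 CPM in Tau + vehicle, a log2 fold change of 0.125 (SE 0.08, 95% interval -0.05 to 0.30).

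By median, the autophagy machinery lay closest to no difference. Its 10 genes had a median log2 fold change of 0.07, and for all 10 the 95% interval lay within 1.5-fold. Of the 10, 5 were higher without overlap (50.0%, against 21.9% of all genes tested and 29.4% of the protein-coding genes in the same range) and 0 lower. Gabarapl2 had the highest log2 fold change of the 10, at 0.16 (95% interval -0.05 to 0.36). It was at 40.8 and 39.6 CPM in WT + vehicle and at 46.8 and 42.6 CPM in Tau + vehicle. Sqstm1, the cargo receptor p62, was at 389.6 and 355.7 CPM in WT + vehicle, 400.1 and 411.7 CPM in Tau + vehicle, and 404.4 and 407.7 CPM in Tau + UNC0642. The 4 Tau libraries lay close together and above both WT libraries, which differed from each other by more than the Tau libraries did. The log2 fold change was 0.12 (SE 0.07, 95% interval -0.04 to 0.29). Gabarap was at 80.2 and 81.9 CPM in WT + vehicle and at 88.5 and 91.7 CPM in Tau + vehicle (log2 fold change 0.15, 95% interval -0.02 to 0.32). Gabarapl1 was at 478.8 and 462.3 CPM in WT + vehicle and at 511.3 and 517.1 CPM in Tau + vehicle (0.13, 95% interval -0.025 to 0.28). Both genes thus had Tau libraries above WT libraries by less than the test's limit. Map1lc3b was at 115.9 and 110.4 CPM in WT + vehicle and 118.4 and 123.6 CPM in Tau + vehicle (0.10, 95% interval -0.07 to 0.26). Map1lc3a was at 117.3 and 114.9 CPM in WT + vehicle and 118.6 and 105.4 CPM in Tau + vehicle (-0.05, 95% interval -0.23 to 0.13), and its ranges overlapped. Ulk1 and Becn1, of the initiation complexes, and Atg5 and Atg7, of the conjugation system, had log2 fold changes of -0.09, 0.03, 0.04 and 0.04 in the edgeR fit. Tfeb was at 4.38 and 5.35 CPM in WT + vehicle and at 4.79 and 5.50 CPM in Tau + vehicle, and the ranges overlapped (0.08, 95% interval -0.41 to 0.57).

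The small upward displacement was read against the libraries. The WT and Tau values did not overlap in 19 members higher in Tau + vehicle (48.7%), against 21.9% of all genes tested and 29.4% of the protein-coding genes in the same range of levels, and in 2 lower (5.13%), against 21.4% and 13.9%. The median deviation of the 39 genes from their own mean over the 6 libraries was -0.01 in the library labelled WT replicate 1 and -0.10 in WT replicate 2, 0.04 and 0.06 in Tau + vehicle, and 0.03 and -0.01 in Tau + UNC0642, on the log2 scale. WT replicate 2 thus lay apart from the other 5 libraries, and 26 of the 39 genes were lower in it than in the library labelled WT replicate 1. Without WT replicate 2 the median log2 fold change of Tau + vehicle against WT + vehicle was 0.06, with 30 of 39 above 0, and without the library labelled WT replicate 1, which leaves libraries of one sex-linked pattern in both groups, it was 0.13, with 31 of 39 above 0. Without both the library labelled WT replicate 1 and Tau replicate 2 the median was 0.15. Other members were called when libraries were left out. A group then held 1 library, and such calls are not read as results about the members. The 8 markers of microglia, cells rich in lysosomes, summed to 298.4 and 335.0 CPM in WT + vehicle, 365.1 and 374.4 CPM in Tau + vehicle, and 338.9 and 324.2 CPM in Tau + UNC0642, with 2 of 8 called higher in Tau + vehicle. Their part in the displacement of the members was not tested.

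**Figure D3:**
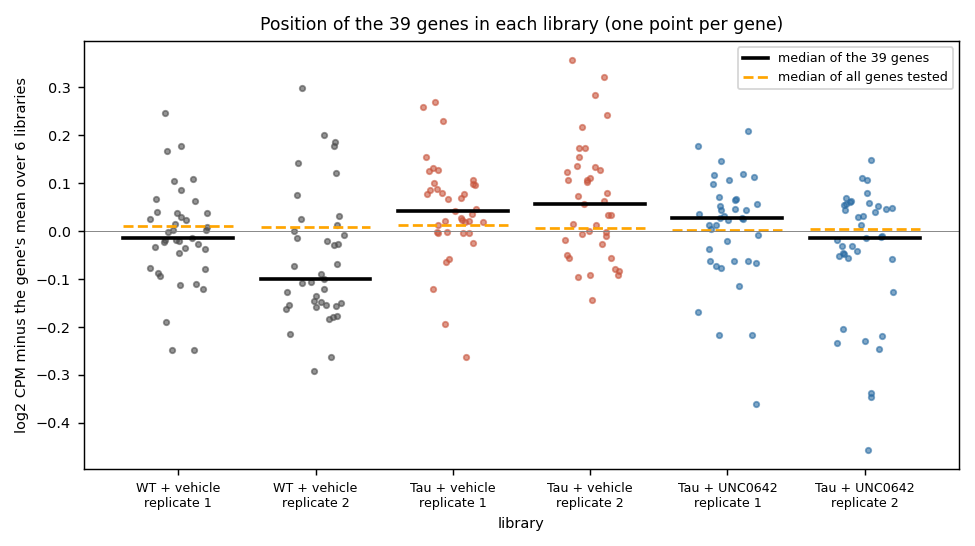
Deviation of each of the 39 genes, one point per gene, from its own mean over the 6 libraries on the log2 scale, with the median of the 39 genes (black) and of all genes tested (orange). The medians of the 39 run from -0.10 in WT + vehicle replicate 2 to 0.06 in Tau + vehicle replicate 2.

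Compared with Tau + vehicle, the Tau + UNC0642 libraries differed in 1 member, Cln3, which was lower. Of the 39 members 1 was called (2.56%), against 7.69% of all genes tested, of which 3.73% were higher and 3.95% lower. The median log2 fold change was -0.04, against -0.0023 for all genes tested, with 14 members above 0 and 25 below. The limma-voom fit and DESeq2's Wald test each called 1 member as well. After adjustment of edgeR's p-values 0 members passed at 0.05 (0.0196% of all genes tested did), and 1 was under 0.05 before adjustment at any fold change (8.86% of all genes). The values did not overlap in 4 members higher in Tau + UNC0642 (10.3%), against 20.4% of all genes tested and 17.4% of the protein-coding genes in the same range, and in 9 lower (23.1%), against 20.9% and 25.2%. The 95% interval lay within 1.5-fold for 34 of 39 members. This comparison and the one above share the Tau + vehicle libraries, so the values of each are given side by side without being compared. Other members were called beside Cln3 when some libraries were left out, with 1 library then in a group, and are not listed here.

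Cln3 lies on chromosome 7, at 126571207 to 126585817 of GRCm38 on the minus strand. It had 195 and 199 counts in WT + vehicle, 241 and 156 in Tau + vehicle, and 94 and 118 in Tau + UNC0642. Scaled for depth, these were 7.69 and 7.77 CPM in WT + vehicle, 8.62 and 8.93 CPM in Tau + vehicle, and 5.57 and 5.21 CPM in Tau + UNC0642. The 3 groups did not overlap, and the SDs of the replicates were 0.06, 0.22 and 0.25 CPM. Against Tau + vehicle, Cln3 fell by 0.70 on the log2 scale (SE 0.17, 38.6% lower, n = 2 against 2), with a 95% interval of -1.09 to -0.32 and a Benjamini-Hochberg adjusted p = 0.339 in edgeR's quasi-likelihood fit. The call was made under each of the other normalisations, filters and tools tried and with each library left out in turn, with log2 fold changes of -0.75 to -0.66, but not on the adjusted p. Both Tau libraries had the Xist-positive pattern and both Tau + UNC0642 libraries the Ddx3y-positive one. The WT libraries, 1 of each pattern, were the 2 at 7.69 and 7.77 CPM in Cln3. Apobr, on the opposite strand, shares 442 exon bases with Cln3 and was at 0.465 to 1.26 CPM, with 108 counts over the 6 libraries against 1003 for Cln3.

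**Figure D4:**
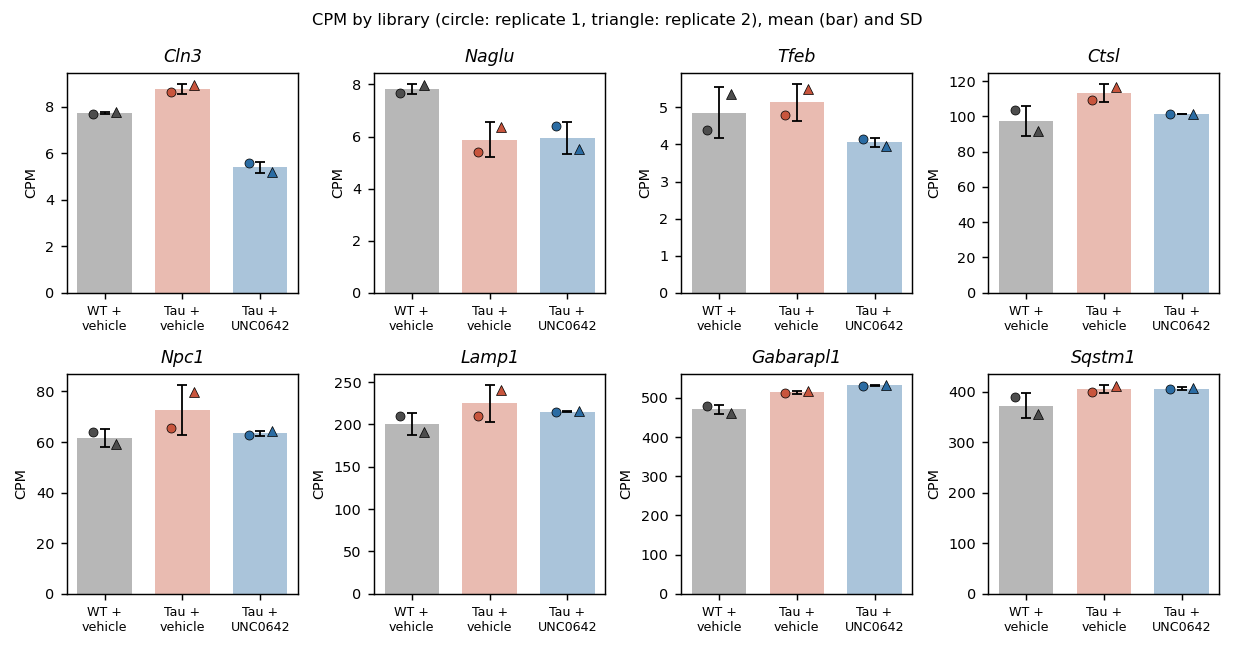
CPM of 8 of the 39 genes in each library (circle, replicate 1; triangle, replicate 2), with bars at the mean of the group and error bars of 1 SD (n = 2), each axis starting at 0. Cln3 is lowest in both Tau + UNC0642 libraries, at 5.57 and 5.21 CPM, and Naglu is highest in both WT + vehicle libraries, at 7.69 and 7.97 CPM.

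All 7 proteases had log2 fold changes below 0 in Tau + UNC0642 against Tau + vehicle, with a median of -0.19 and a range of -0.27 (Ctsc) to -0.01 (Ctsf), and none was called. For Ctsl, with its 2 Tau + UNC0642 values below both Tau + vehicle values, the log2 fold change was -0.16 (SE 0.09, 95% interval -0.35 to 0.03). Tpp1, the tripeptidyl peptidase missing in late infantile Batten disease, was at 37.7 and 38.3 CPM in Tau + vehicle and at 35.8 and 29.6 CPM in Tau + UNC0642 (log2 fold change -0.22, 95% interval -0.47 to 0.04). Ctsa, the carboxypeptidase that protects beta-galactosidase and neuraminidase, was at 72.9 and 70.3 CPM and then at 60.5 and 65.0 CPM (-0.19, 95% interval -0.39 to 0.009). Ctsl, Tpp1 and Ctsa were lower without overlap between the groups, and the differences were within the test's error. These 3 were 42.9% of the 7 proteases, against 20.9% of all genes tested and 25.2% of the protein-coding genes in the same range of levels.

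Of the other membrane proteins, Npc1 had a log2 fold change of -0.19 (95% interval -0.43 to 0.04) and Lamp1 of -0.06 (-0.26 to 0.13), and Lamp1 lay at 0.03 without Tau replicate 2. The glycosidases ranged from -0.23 for Gaa, the acid alpha-glucosidase of glycogen breakdown, to 0.23 for Man2b1, the lysosomal alpha-mannosidase. Gaa was at 204.5 and 161.3 CPM in Tau + vehicle and at 147.1 and 164.8 CPM in Tau + UNC0642. The ranges overlapped, with Tau replicate 2 below 1 of the Tau + UNC0642 libraries. Man2b1 was at 34.3 and 34.0 CPM in Tau + vehicle and 40.6 and 39.8 CPM in Tau + UNC0642 (95% interval -0.06 to 0.52), and the WT + vehicle libraries lay at 38.7 and 29.3 CPM, on both sides of the Tau + vehicle values and below both Tau + UNC0642 values. Naglu did not follow, with a log2 fold change of 0.02 (SE 0.19).

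Tfeb was at 4.14 and 3.97 CPM in Tau + UNC0642, below both Tau + vehicle and both WT + vehicle libraries. The log2 fold change was -0.34 (SE 0.23) against Tau + vehicle and -0.26 (SE 0.23) against WT + vehicle. The 95% interval of the first ran from -0.84 to 0.17, so that neither no difference nor a fold of 1.5 lay outside it. The 9 members with GTCACGTG in their promoter lay at a median of -0.04 on the log2 scale in Tau + UNC0642 against Tau + vehicle, and the 25 without it at -0.03. In Tau + vehicle against WT + vehicle these medians were 0.16 and 0.12.

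Against Tau + vehicle, the 10 genes of the autophagy machinery had a median log2 fold change of 0.02 and a range of -0.10 to 0.10, and the 95% interval lay within 1.5-fold for all 10. Sqstm1 had a log2 fold change of 0.0007 (SE 0.07, 95% interval -0.16 to 0.17). For the Atg8 homologues the log2 fold changes were 0.05 for Gabarapl1, 0.09 for Gabarapl2, 0.01 for Gabarap, 0.02 for Map1lc3b and -0.04 for Map1lc3a, each with a 95% interval that included 0. Gabarapl1, at 530.5 and 533.3 CPM, and Gabarapl2, at 47.9 and 47.6 CPM, were above both Tau + vehicle libraries in both Tau + UNC0642 libraries. They were 20.0% of the 10, against 20.4% of all genes tested. With its pseudogene copies added, Gabarapl2 was at 86.1 and 83.4 CPM in Tau + vehicle and at 84.5 and 89.2 CPM in Tau + UNC0642. The ranges then overlapped, with a log2 ratio of 0.04. Map1lc3a, at 107.6 and 111.0 CPM in Tau + UNC0642, lay between the Tau + vehicle libraries. Gabarap was at 90.0 and 91.5 CPM in Tau + UNC0642, and Map1lc3b at 122.5 CPM in both libraries.

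Compared with WT + vehicle, the Tau + UNC0642 libraries again differed by the call in Cln3 alone, so that 1 of 39 members was called (2.56%), against 9.47% of all genes tested, of which 3.77% were higher and 5.69% lower. Cln3 fell by 0.52 on the log2 scale (SE 0.17, 30.4% lower, n = 2 against 2), with a 95% interval of -0.91 to -0.14 and an adjusted p = 0.276 in edgeR's quasi-likelihood fit. Against the library labelled WT replicate 1 alone, which shares the sex-linked pattern of both Tau + UNC0642 libraries, the log2 fold change was -0.515, and against WT replicate 2 alone it was -0.53, and both passed the limits. The call was lost without Tau + UNC0642 replicate 2 (-0.48). The limma-voom fit and DESeq2's Wald test each called 1 member, and after adjustment of edgeR's p-values 0 passed at 0.05 (0.216% of all genes tested did), with 3 under 0.05 before adjustment (12.1% of all genes).

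The other 2 of these 3 were Atg8 homologues that were higher in Tau + UNC0642. Gabarapl2 was at 40.8 and 39.6 CPM in WT + vehicle, 46.8 and 42.6 CPM in Tau + vehicle, and 47.9 and 47.6 CPM in Tau + UNC0642, a log2 fold change of 0.25 (SE 0.09, a fold of 1.19, 95% interval 0.04 to 0.46, adjusted p = 0.332 from edgeR). With its pseudogene copies added to it the log2 ratio was 0.21. Gabarapl1 had a log2 fold change of 0.18 (SE 0.07, a fold of 1.13, 95% interval 0.02 to 0.33, adjusted p = 0.346). Both lay under the limit on fold. Here too, other members were called when libraries were left out and a group held 1 library, and they are not listed. Naglu had a log2 fold change of -0.40 (95% interval -0.82 to 0.02) and Gabarap of 0.16 (-0.009 to 0.34). Over the 39 members the median was 0.05, against -0.01 for all genes tested, with 25 above 0, and the 95% interval lay within 1.5-fold for 35. That median was 0.0986 without the library labelled WT replicate 1, 0.03 without WT replicate 2, 0.112 without Tau + UNC0642 replicate 2 and 0.0148 with scaling by total counts. The values did not overlap in 17 members higher in Tau + UNC0642 (43.6%), against 22.1% of all genes tested and 28.1% of the protein-coding genes in the same range, and in 7 lower (17.9%), against 22.3% and 21.3%. By class, the medians were 0.13 for the autophagy machinery, with 8 of 10 above 0, 0.09 for the lipid hydrolases and cofactors, 0.08 for the membrane proteins, 0.07 for the glycosidases and -0.03 for the proteases. Of the 10 genes of the autophagy machinery, 6 lay higher without overlap and 1 lower, and the values of all 7 proteases among the 39 overlapped. Cathepsins outside the 39 lay at 0.22 (Ctsb), 0.20 (Ctss), 0.13 (Ctsd), 0.09 (Ctsz) and 0.03 (Ctso). All of these but Ctso were higher without overlap.

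A further 140 genes of the lysosome and of autophagy, in 6 lists of other hydrolases, membrane and sorting proteins, subunits of the proton pump, nutrient sensing, core autophagy genes, and receptors and fusion proteins, were all among the genes tested. In Tau + vehicle against WT + vehicle, 5 of 140 were called higher and 0 lower (3.57%). Of all genes tested 9.81% were called, 3.72% higher and 6.1% lower. The median log2 fold change of the 140 was 0.08. Of them, 116 lay above 0 (82.9%), against 50.0% of all genes tested and 61.4% of the protein-coding genes in the range of levels of the members. Snap29, a SNARE of the fusion of autophagosomes with lysosomes, was at 26.1 and 25.7 CPM in WT + vehicle and at 34.0 and 35.0 CPM in Tau + vehicle, and rose by 0.41 on the log2 scale (SE 0.10, 95% interval 0.19 to 0.64, adjusted p = 0.209 from edgeR). Ctsd, the aspartic protease cathepsin D, rose by 0.27 (SE 0.09), and Atg4d, which processes Atg8 homologues, by 0.35 (SE 0.11) in the same fit. The other 2 were Ctss (0.31) and Lipa (0.27), named here after their values were seen. The split of 5 higher and 0 lower became 4 and 1 with DESeq2's size factors and 2 and 1 with scaling by total counts. The number called was 8 without the library labelled WT replicate 1, 9 without WT replicate 2 and 10 without Tau replicate 1. Of all genes, 9.03%, 10.3% and 9.32% were called in these 3 fits. Without both the library labelled WT replicate 1 and Tau replicate 2, 15 were called, all higher, where 10.2% of all genes were called and 4.62% were higher.

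In Tau + UNC0642 against Tau + vehicle, 4 of these 140 were called and all 4 were lower (2.86%). Of all genes tested 7.69% were called, 3.73% higher and 3.95% lower. Abca2, a lipid transporter of the lysosomal membrane that oligodendrocytes express strongly, was at 259.2 and 269.3 CPM in Tau + vehicle and at 214.9 and 199.2 CPM in Tau + UNC0642, and fell by 0.35 on the log2 scale (SE 0.07, 95% interval -0.52 to -0.19, adjusted p = 0.278 from edgeR). Plbd2, a lumenal phospholipase-like protein, fell by 0.42 (SE 0.11), and Cd68, a macrophage and microglial membrane protein, fell by 0.61 (SE 0.23). Cd68 was at 4.65 and 5.67 CPM in Tau + vehicle and at 3.32 and 3.40 CPM in Tau + UNC0642. Slc17a5, the sialic acid transporter, named after its value was seen, had a log2 fold change of -0.27. The oligodendrocyte markers summed to 1954 and 5278 CPM in Tau + vehicle and to 2020 and 2163 CPM in Tau + UNC0642, and their part in the difference of Abca2 was not tested. The microglial marker sums given above were lower in both Tau + UNC0642 libraries than in both Tau + vehicle libraries, and their part in the difference of Cd68 was not tested. Without Tau replicate 2, 13 of the 140 were called, 12 of them lower, where 8.37% of all genes were called and 4.19% were lower.

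In Tau + UNC0642 against WT + vehicle, 5 were called higher and 3 lower (5.71%), a split that became 3 and 4 with scaling by total counts. Of all genes tested 9.47% were called, 3.77% higher and 5.69% lower. Without the library labelled WT replicate 1, 21 were called, 15 of them higher, where 9.02% of all genes were called and 4.27% were higher. Atg3, the enzyme that joins Atg8 homologues to lipid, was at 35.7 and 37.5 CPM in WT + vehicle, 37.4 and 42.3 CPM in Tau + vehicle, and 45.8 and 47.5 CPM in Tau + UNC0642, and rose by 0.35 (SE 0.10, 95% interval 0.13 to 0.57, adjusted p = 0.224 from edgeR). Atp6ap2, an accessory subunit of the proton pump, rose by 0.27 (SE 0.08) and Snap29 by 0.32 (SE 0.10). Plbd2 fell by 0.42 (SE 0.11), Rptor, the mTORC1 subunit raptor, fell by 0.28 (SE 0.11), and Idua, the alpha-iduronidase that acts on heparan sulfate as Naglu does, fell by 0.42 (SE 0.18). Atg101 and Atg14, named after their values were seen, were the other 2 called higher. Of the 140 genes, 0 passed at 0.05 in any of the 3 comparisons after adjustment of edgeR's p-values, with 13, 11 and 24 under 0.05 before adjustment, in the order given.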

How the data were processed

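The deposited files held raw read counts per gene, which the authors made from strand-specific libraries of ribosome-depleted RNA with Cutadapt, TopHat2 (alignment to RefSeq mRNAs, default parameters), SAMtools and featureCounts, with mm10 as the named build; versions, the annotation used for counting and its strand setting are not given in the sources used here. The 6 count files were joined by position, since 26 gene names in 2 of them had turned into dates, none of them a member. Counts were fitted with edgeR 4.0.16 (R 4.3.3) in 1 quasi-likelihood model of 3 group means over all 6 libraries, with TMM scaling (factors 0.9663 to 1.0359), filterByExpr (minimum count 10, minimum total 15), 3 residual degrees of freedom and a biological coefficient of variation of 12.31%. P-values were adjusted over all 20409 genes tested, and SE and 95% intervals came from the same fit. Exon lengths and positions were taken from GENCODE M21 (GRCm38), near-identical copies from blastn 2.17.0, and promoters from RefSeq. Values in every library are given for the called members, Tfeb, Lamp1, Ctsl, Sqstm1 and the Atg8 homologues. Of the other called pathway genes, up to 3 with the smallest p per direction are named, some of them with library values. Any others were chosen for their values. The members and lists were chosen with earlier results of these data known. The labels call the samples biological duplicates, and replicates differed by more than counting noise. On simulated counts (19169 genes) the fit called 79% of genes changed 1.5-fold in Tau against WT and 69% in Tau + UNC0642 against Tau (19% and 18% passed after adjustment), and 4.96% and 5.06% of unchanged ones. The simulation gave every gene the same dispersion and no difference between replicates in sex-linked genes or cell type markers. These shares therefore need not hold for the measured libraries. limma 3.58.1, DESeq2 1.42.0, other scalings, filters, limits, a replicate block and leaving out libraries were the alternatives; leaving out 2 libraries together was chosen after seeing the data.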

Additional observations from a re-analysis of the deposited data

How the results depend on the processing

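Members called in Tau + vehicle against WT + vehicle (1) numbered 0 without the filter, with the 2 groups alone, by DESeq2's Wald test, at a fold of 1.5 and on adjusted p, and 3 with no limit on fold or without both the library labelled WT replicate 1 and Tau replicate 2 (below, both libraries). Against Tau + vehicle (1) they numbered 0 on adjusted p and 3 without both libraries, and Tau + UNC0642 against WT + vehicle (1) gave 2 with total counts, 0 at a fold of 1.5 and on adjusted p, 3 with no limit on fold and 5 without both libraries. For the other pathway genes, Tau + vehicle against WT + vehicle (5) gave 3 with total counts, 0 at a fold of 1.5 and on adjusted p, 13 with no limit on fold and 15 without both libraries. Tau + UNC0642 against Tau + vehicle (4) gave 2 by the Wald test, 1 at a fold of 1.5, 11 with no limit, 0 on adjusted p and 14 without both. Against WT + vehicle (8) it gave 0 at a fold of 1.5 and on adjusted p, and 24 with no limit and without both. The median of the members was 0.0536 with total counts and 0.1498 without both libraries in Tau + vehicle against WT + vehicle (0.1233), and 0.0148 with total counts and 0.1015 without both libraries in Tau + UNC0642 against WT + vehicle (0.0545). With each library left out in turn, members called ranged from 0 to 3, 1 to 3 and 0 to 3 in the 3 comparisons, other pathway genes from 5 to 10, 3 to 13 and 6 to 21, and the member medians from 0.0629 to 0.1328, -0.0374 to -0.0213 and 0.03 to 0.112. The cause of these moves was not tested.

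Signs turned on leaving out 1 library for values near 0: in Tau + vehicle against WT + vehicle for Tfeb (-0.066 to 0.229) and Map1lc3a (-0.1395 to 0.035), in Tau + UNC0642 against Tau + vehicle for Naglu (-0.0979 to 0.1337), Lamp1 (-0.1594 to 0.0336), Sqstm1 (-0.0199 to 0.0175), Map1lc3a (-0.1216 to 0.0524), Map1lc3b (-0.0123 to 0.0459) and Gabarap (-0.0152 to 0.0336), and against WT + vehicle for Ctsl (-0.0313 to 0.144). Replicate numbers did not pair the mice: deviations of same-numbered libraries correlated at -0.034, -0.021 and -0.003. With a replicate block, 0, 1 and 1 members and 4, 4 and 7 other pathway genes were called, and Naglu was the member no longer called. Of the alternatives for the 11 named members, 435 kept the direction and the call, 10 lost it, 3 gained it and 14 turned the sign. Where a setting left a group with 1 library, that library was assumed to vary like the others.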
